A study of Arabidopsis with 24 samples.

Results

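The 191 genes described here encode proteins of the cytosolic ribosome of Arabidopsis. They were chosen by the wording of the gene descriptions in the deposited table, which had to name a 40S or a 60S ribosomal protein, and by a mean level of at least 1 FPKM (fragments per kilobase of transcript, scaled to the size of the library) over the 24 libraries. Of 32833 genes in the table, 206 carried such a description and 191 of these passed the level. The members are 87 genes of the 40S subunit and 104 genes of the 60S subunit, in 78 protein families, and all 191 are protein-coding in the RefSeq annotation. The rule itself used no comparison between groups, but it was set with earlier results of these data known. The description goes against the label cytosolic for 2 members, whose proteins are named as mitochondrial (AT3G22300 of the S10 family and AT5G47320 of the S19 family). The acidic stalk proteins of the large subunit have another wording in the table and are not among the members. Any other ribosomal protein gene with another wording is missed as well. A family here thus holds only the loci that met the wording and the level, and may lack paralogues.

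RNA-seq was performed on whole seedlings of 4 genotypes, all in the Col-0 background, that were grown for 6 days in white light (WL) and then kept in WL or moved for 6 h to low R:FR, a light with a red to far-red ratio of 0.3 that mimics plant shade. The genotypes were Col-0 (the wild type, labelled WT), dvl1-1D (an activation-tagged line with a T-DNA in the RTFL18 promoter that overexpresses the small peptide gene RTFL18), bsk36 (a T-DNA double mutant of the kinases BSK3 and BSK6) and pif47 (a double mutant of the transcription factors PIF4 and PIF7). Each of the 8 groups had 3 replicates, and each mutant is represented by 1 line. Nothing in the labels says how the replicates were grown, so the tests measure the spread between these samples, which may be technical.

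The eukaryotic ribosome has a small 40S subunit, which holds the mRNA and reads the codons, and a large 60S subunit, which joins the amino acids and releases the chain through an exit tunnel. Each protein is needed in about equal number per ribosome, and in Arabidopsis most of them are encoded by several paralogous genes. Transcript levels of these genes are known to follow growth, sugar supply and light, and ribosomes are made mainly in young, growing tissue.

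The genotypes showed their labelled changes. RTFL18 had 517 to 975 FPKM in the 6 dvl1-1D libraries against at most 12.9 FPKM in the 18 others. BSK3 was at most 0.03 FPKM and BSK6 at most 0.75 FPKM in bsk36, against at least 20.6 and 7.83 FPKM elsewhere. In pif47, PIF7 was at most 1.34 FPKM against at least 9.83 FPKM elsewhere, and PIF4 was 2.09 ± 0.393 FPKM in WL against 7.12 ± 0.398 FPKM in Col-0 (SD, n = 3). In low R:FR PIF4 was 7.88 ± 0.194 FPKM in pif47 against 24.1 ± 2.20 FPKM in Col-0. Its transcript in pif47 was thus reduced under both lights but still rose in low R:FR. The read number of a library cannot be read from FPKM, which leaves the counting error unknown. The relative depth of the libraries, read from the steps between low values of 119 genes, ranged from 0.818 to 1.22.

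The members were among the most abundant transcripts of the seedlings. Their mean level over the libraries had a median of 205 FPKM, with quartiles of 106 and 346 FPKM, whereas the median of all 20682 tested genes was 10.2 FPKM. A total of 146 members had at least 100 FPKM, 31 were under 50 FPKM and 7 under 10 FPKM, and 89 were among the 500 highest genes of the table. The highest members were RPL37AC (AT3G60245, 911 FPKM), RPL19A (AT1G02780, 823 FPKM), which takes part in a bridge between the subunits, RPS8A (AT5G20290, 769 FPKM), RPL27C (AT4G15000, 743 FPKM) and RPL17B (AT1G67430, 670 FPKM), a protein of the exit tunnel. The lowest members were RPS23A (AT3G09680, 1.01 FPKM), AT3G18880 (an S17-like protein, 1.68 FPKM), RPS8B (AT5G59240, 3.44 FPKM), AT5G47940 (described as S27, 5.90 FPKM) and AT1G57540 (an unnumbered 40S protein, 7.0 FPKM). RPS23A lay just inside the threshold, and AT2G28815, an L16-like row at 0.358 FPKM, was the nearest outside it. Of the 15 rows under the threshold, 6 were listed at 0 in every library.

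Expression within a family was uneven. Of the 68 families with 2 or more members, 55 drew over 50% of their summed FPKM from a single locus and 6 over 90%, with a median of 60.9% for the leading locus. The lowest share of a leading locus was 33.7%, in the family of L41, the smallest protein of the ribosome, which has 5 loci. The highest was 99.8%, for AT5G02960 in the S23 family, a protein of the decoding centre, with RPS23A supplying the rest. Reads of near-identical paralogues can be divided between loci in ways that the sources used here do not describe, and 38 members share a protein entry with another member. The sums over a family do not depend on how such reads were divided within it. They would still be affected if shared reads were dropped or counted at every locus.

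Ribosomal protein transcripts took a smaller share of the library after 6 h of low R:FR in all 4 genotypes. In Col-0 the members held 7.08%, 6.05% and 6.67% of the summed FPKM in WL and 4.51%, 4.65% and 5.16% in low R:FR. In dvl1-1D they held 6.00%, 6.36% and 6.54% in WL and 5.03%, 5.16% and 5.34% in low R:FR. In every genotype the lowest WL library lay above the highest low R:FR library. The shares of bsk36 were 6.11%, 6.04% and 6.17% in WL and 5.28%, 4.97% and 4.40% in low R:FR. Those of pif47 were 6.85%, 6.77% and 6.24% in WL and 5.18%, 5.39% and 4.82% in low R:FR. Replicate 3 of bsk36 in low R:FR had the lowest share of the 24 libraries and replicate 1 of Col-0 in WL the highest. The means were 6.60 ± 0.517% and 4.77 ± 0.342% in Col-0, 6.30 ± 0.271% and 5.18 ± 0.152% in dvl1-1D, 6.11 ± 0.0689% and 4.89 ± 0.445% in the bsk36 mutant, and 6.62 ± 0.334% and 5.13 ± 0.288% in pif47 (SD, n = 3). Both subunits moved alike in Col-0, from 2.71 ± 0.216% to 1.98 ± 0.125% for the 40S genes and from 3.89 ± 0.301% to 2.79 ± 0.218% for the 60S genes (SD, n = 3). In whole seedlings, fewer cells of a growing type and less of these transcripts per cell cannot be told apart.

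**Figure D1:**
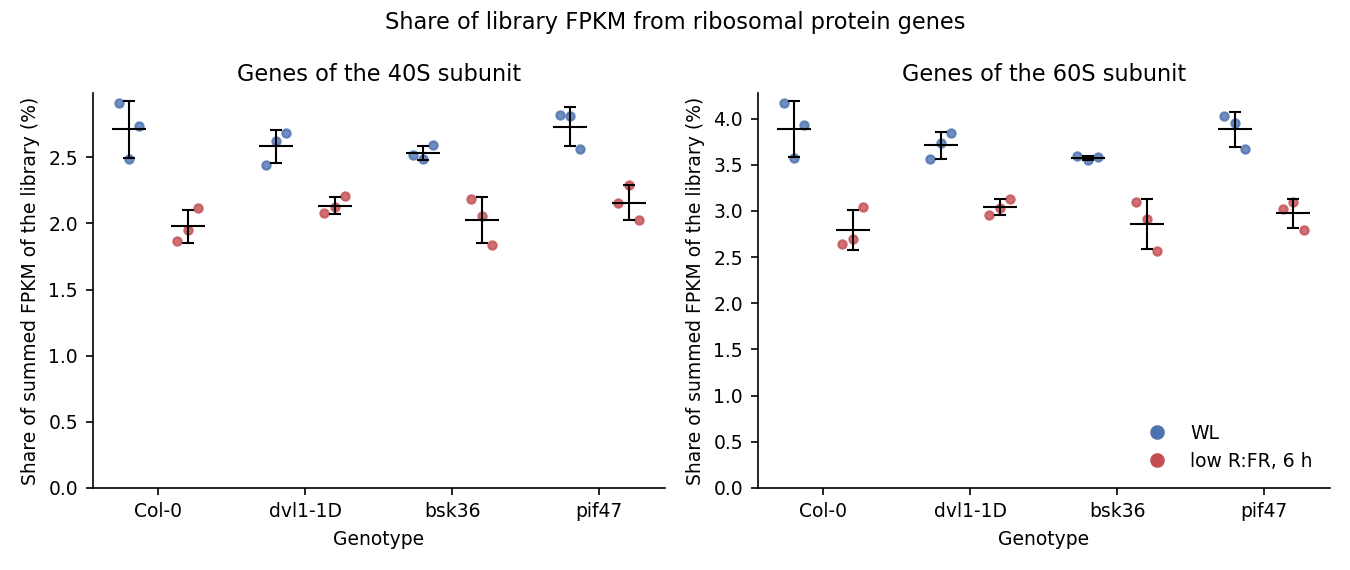
Share of the summed FPKM of each library (%, y axis) held by the 87 genes of the 40S subunit (left) and the 104 genes of the 60S subunit (right) in 4 genotypes (x axis). Points are single libraries, the bar is the mean and the whiskers the SD of 3 replicates; for both subunits every low R:FR library lies below every WL library of its genotype.

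Most single members fell in Col-0. Of 191 members, 170 were lower and 2 higher in low R:FR at an adjusted p under 0.05 (limma, Benjamini-Hochberg over 20682 genes), where 15.7% of all tested genes were lower and 21% higher (36.7% in all). The median log2 fold change of the members was −0.50 (quartiles −0.56 and −0.38), against 0.06 for all tested genes, which is a median change of −29.1% on the log2(FPKM + 0.1) scale used for all fold changes here. The 40S members gave 74 lower and 1 higher of 87 with a median of −0.45, and the 60S members 96 lower and 1 higher of 104 with a median of −0.52. The response was small per gene and narrow in range: no member passed a log2 fold change of −1 with P of at most 0.01, which 1.32% of tested genes did. Among the 1042 other genes with at least 100 FPKM 40.5% were lower and 23.3% higher, with a median of −0.10. Of the members, 144 of the 146 at that level were lower and none higher. Among the 5712 other genes that span 1000 to 2000 bp, as do 156 members, the median was 0.02, against −0.50 for these members. The span includes introns and is not the transcript length by which FPKM are scaled.

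The leading genes of the Col-0 response came from both subunits. RPS6A (AT4G31700) encodes S6, the protein that S6 kinase phosphorylates downstream of the TOR kinase. It had 611, 526 and 562 FPKM in WL and 305, 326 and 377 FPKM in low R:FR. The groups lay far apart, and the log2 fold change was −0.76 ± 0.08 (SE, adjusted p = 7.5e-07). RPS3AA (AT3G04840), a protein of the 40S platform, had 601, 516 and 554 FPKM in WL and 307, 332 and 376 FPKM in low R:FR, a change of −0.72 ± 0.08 (adjusted p = 1.1e-06). RPS17C (AT3G10610), a copy of S17 in the 40S head, had 111, 97.1 and 110 FPKM in WL and 52.6, 63.1 and 70.6 FPKM in low R:FR, a change of −0.78 ± 0.10 (adjusted p = 3.1e-06). As for RPS6A, no library of one light overlapped the other. RPL14A (AT2G20450), the only L14 locus among the members, had 151, 149 and 160 FPKM in WL and 85.1, 92.5 and 105 FPKM in low R:FR, a change of −0.71 ± 0.07 (adjusted p = 6.3e-08). RPL36A (AT2G37600) changed by −0.71 ± 0.08 and RPL6A (AT1G18540), whose protein lies beside L14 on the outer face of the 60S subunit, by −0.72 ± 0.09 (adjusted p = 4.7e-07 and 3.8e-06). RPL6A and RPS17C are among 55 members that overlap a neighbouring gene in the RefSeq table, as do ARP2, RPS15AF, RPSAb, RPS8B and RPL28C below. Strand-specific counting is not stated, so reads of the neighbour cannot be separated from theirs.

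The fall was present in each mutant with a smaller median than in Col-0. The difference between these medians was not tested, and each mutant is set against the same Col-0 libraries. In dvl1-1D, 121 members were lower and 1 higher, against 8.35% lower and 10.7% higher among all tested genes (19% in all), with a median log2 fold change of −0.28. In bsk36, 136 were lower and 2 higher, against 9.24% and 8.09% (17.3% in all), with a median of −0.32. In pif47, the mutant of the shade response factors, 152 were lower and 1 higher, against 10.1% and 8.25% (18.3% in all), with a median of −0.37. The medians of all tested genes were 0.03, −0.01 and 0.03 in the same order. The counts for the mutants depended on single libraries: without dvl1-1D in WL replicate 3 the count called in dvl1-1D was 69, without its low R:FR replicates 1 and 2 it was 75 and 76, and without bsk36 in low R:FR replicate 3 the count in bsk36 was 77. With the bsk36 libraries fitted alone 72 members were called.

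**Figure D2:**
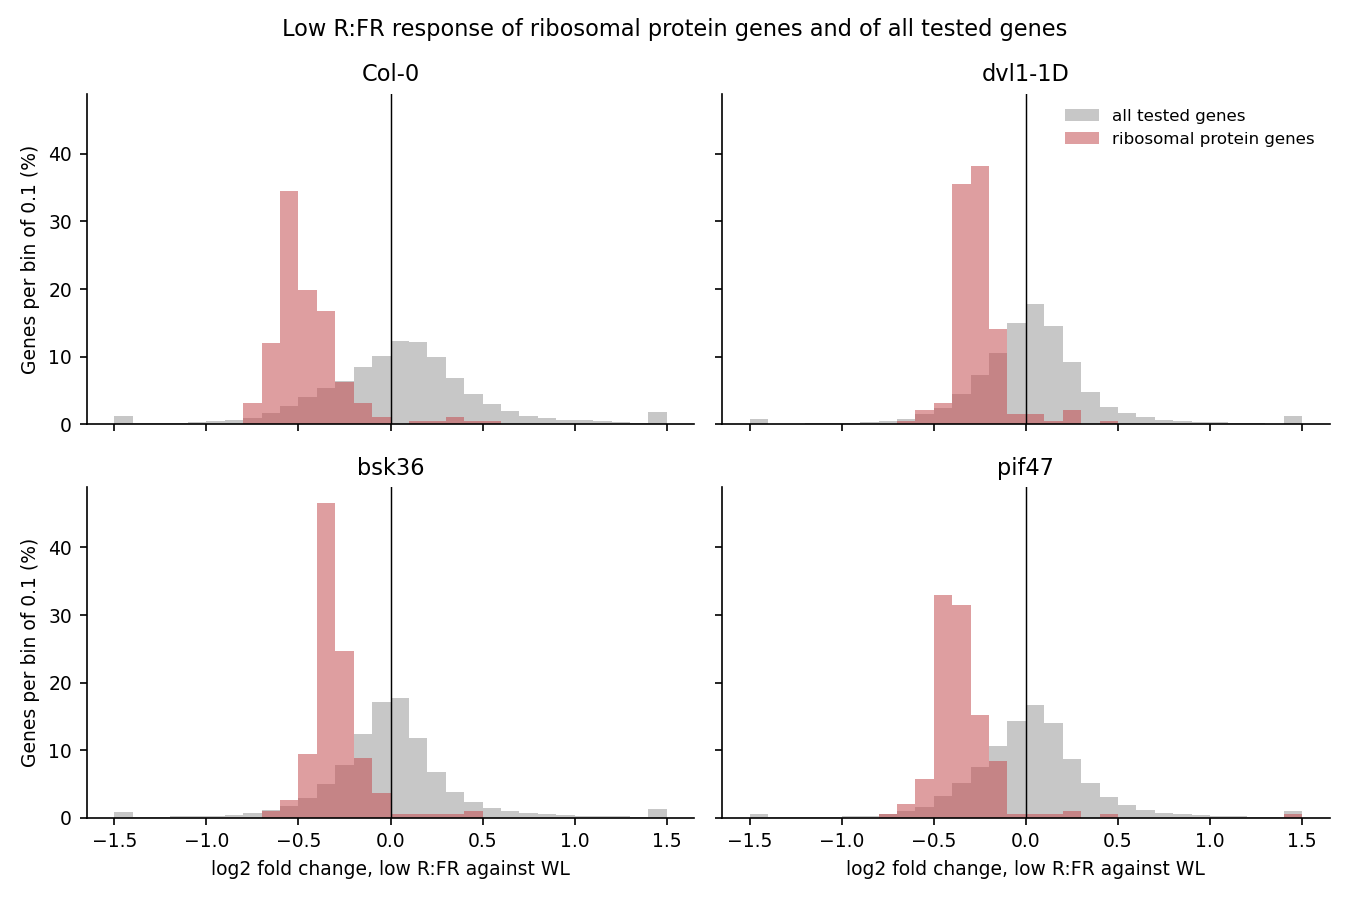
Distribution of the log2 fold change of low R:FR against WL (x axis, bins of 0.1, values beyond 1.5 in the end bins) as the percentage of genes per bin (y axis) for the 191 members (red) and for the 20682 tested genes (grey) in each genotype. The members form a narrow peak below 0 in every panel, with medians of −0.50 (Col-0), −0.28 (dvl1-1D), −0.32 (bsk36 mutant) and −0.37 (pif47).

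A total of 103 members were lower at an adjusted p under 0.05 (limma) in all 4 genotypes, where 3.77% of tested genes were. Another 37 were lower in 3 genotypes, 21 in 2, 14 in 1 and 16 in none, and 4 were higher in at least 1. The log2 fold change was negative in all 4 genotypes for 180 of the 191. Every low R:FR library lay below every WL library for 169 members in Col-0, 164 in dvl1-1D, 157 in the bsk36 mutant and 168 in pif47, and for 140 in all 4 genotypes, where the shares over all tested genes were 18.4%, 15.7%, 16.7%, 17.8% and 5.95%. As a description across genes, which are not independent replicates and are measured in the same libraries, the response of the 191 members in Col-0 had a Pearson correlation of 0.82 with that in dvl1-1D, 0.66 with bsk36 and 0.74 with pif47. Among the 146 members with at least 100 FPKM these values were lower for all 3 mutants, at 0.68, 0.58 and 0.69. The rank (Spearman) correlations over the 191 members were 0.71, 0.53 and 0.71.

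Summed over paralogues, nearly every protein family was lower. The summed FPKM of 76 of the 78 families lay in every low R:FR library below every WL library in Col-0, 76 in dvl1-1D, 73 in the bsk36 mutant and 76 in pif47, and this held in all 4 genotypes for 71 families. Over single tested genes the shares were 18.4%, 15.7%, 16.7%, 17.8% and 5.95% in that order. No background was computed for sums over several genes, so these shares are not like for like. A family changed at the median by −29.1% in Col-0, −17.4% in dvl1-1D, −20.3% in the bsk36 mutant and −22.6% in pif47. In Col-0 the largest changes were −38.6% for L14, −37.3% for L15, −35.9% for SA and −35.5% for L28. L14 and L15 have 1 locus each among the members, so these values are changes of single genes. The smallest among the numbered cytosolic families were −14.5% for L18a, −22.1% for S14, which lines the mRNA exit side of the 40S subunit, and −22.6% for L35, a protein beside the exit of the tunnel. Families made as fusions with ubiquitin were no exception, at −33.7% for S27a and −26.6% for L40. The mitochondrial S10 and S19 genes changed by −22.1% and −19.4% in Col-0 and by −6.00% and −5.88% in bsk36. The only family with a higher mean in Col-0 was the unnumbered AT1G57540, at 5.14 to 7.78 FPKM in WL and 5.92 to 7.63 FPKM in low R:FR, where the groups overlapped.

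**Figure D3:**
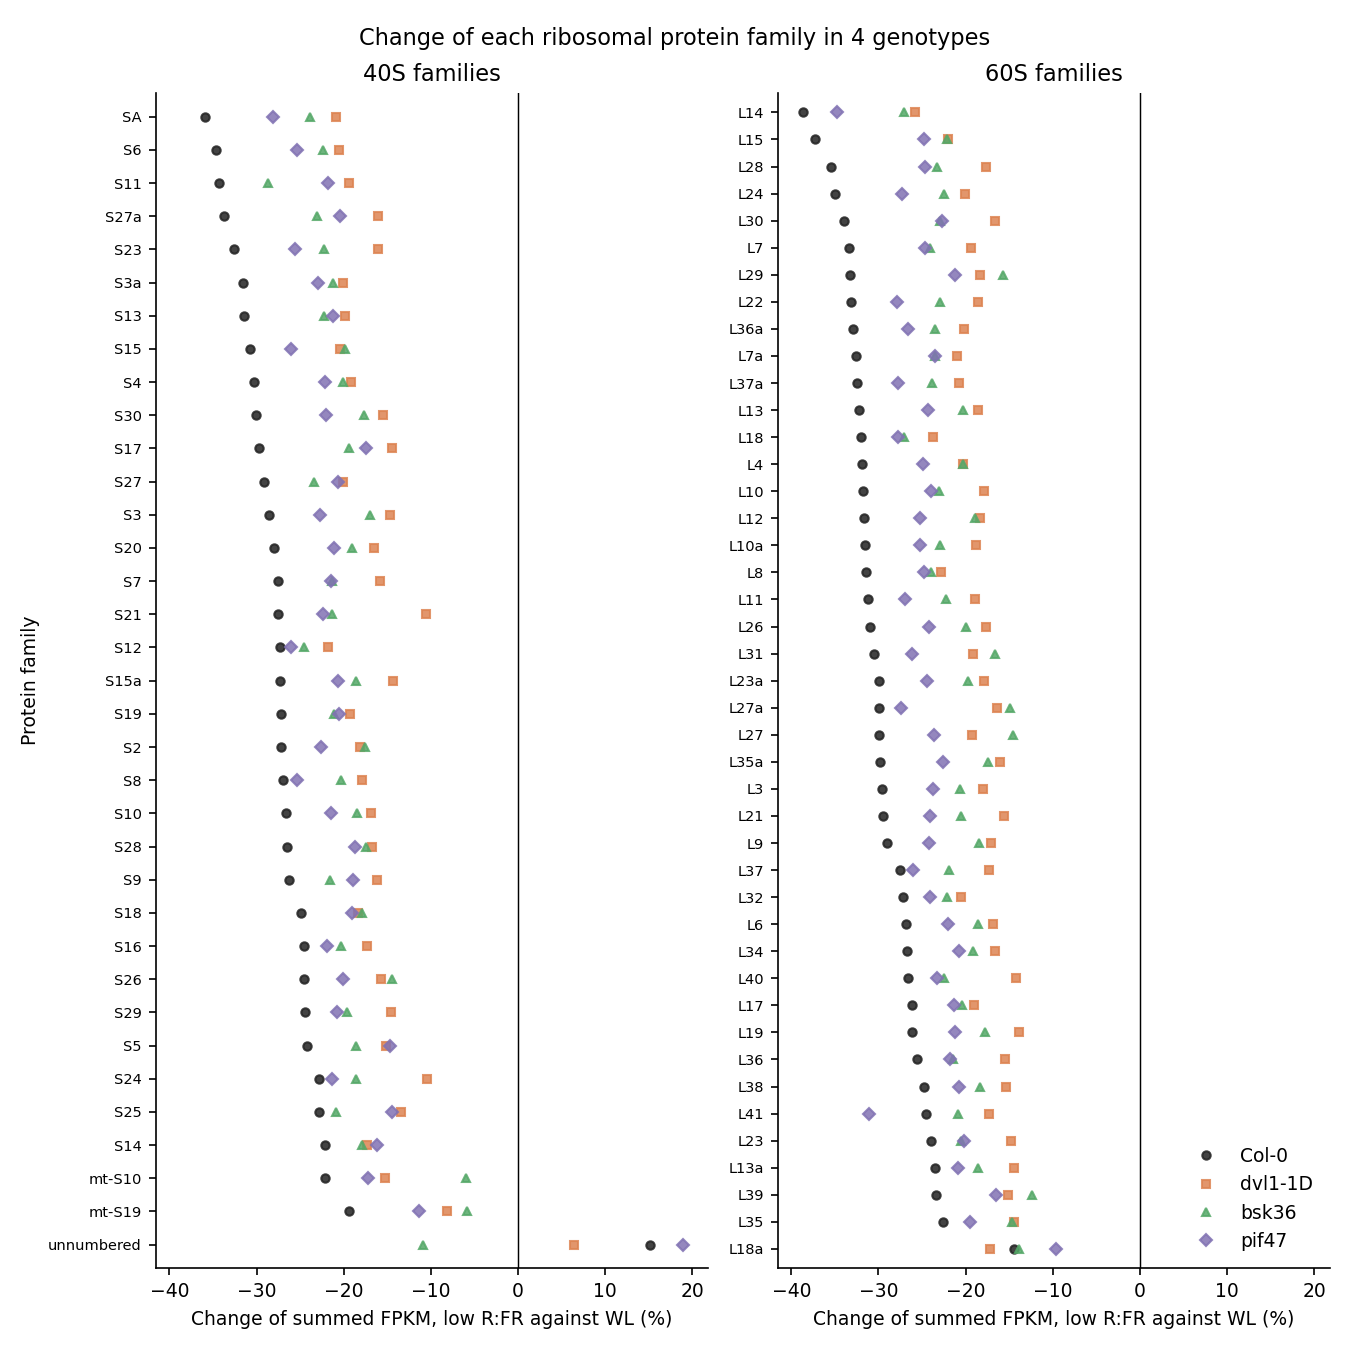
Change of the summed FPKM of each protein family in low R:FR against WL (%, x axis, from the means of 3 libraries) for the 40S families (left) and the 60S families (right, y axis), ordered by Col-0. Symbols mark the genotypes; in Col-0 all families but the unnumbered AT1G57540 lie below 0, and for most families Col-0 lies furthest to the left, with L41 in pif47 among the exceptions.

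The leading locus of a family and its minor paralogues changed by similar amounts at the median, with a wider range among the minor ones. In Col-0 the 68 leading loci gave a median of −0.51 on the log2 scale and ranged from −0.76 to −0.24. The other 113 loci of these families had a median of −0.48 and ranged from −0.78 to 0.57. The 31 members under 50 FPKM had a median of −0.31, and 13 of them were lower and 2 higher. The 4 members that were higher in any genotype were all in this low class, and the leading locus of the family was called lower in the same comparison, except in the L18a family in pif47.

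RPL3B, named ARP2 in the table (AT1G61580), is the minor copy of L3, a protein that reaches towards the peptidyl transferase centre. In bsk36 it had 33.2, 33.6 and 33.9 FPKM in WL and 42.1, 44.1 and 42.3 FPKM in low R:FR, a rise of 0.35 ± 0.06 (log2, SE, adjusted p = 4.0e-04). In dvl1-1D it had 32.5, 33.2 and 37.6 FPKM in WL and 42.7, 40.8 and 39.8 FPKM in low R:FR, a rise of 0.26 ± 0.06 (adjusted p = 0.0055). Neither pair of groups overlapped, although the locus itself overlaps AT1G61575. In Col-0 the WL values of 41.4, 39.3 and 41.4 FPKM and the low R:FR values of 37.8, 40.7 and 40.8 FPKM overlapped, as did those of pif47. In WL the gene was below Col-0 in bsk36 (−0.28 ± 0.06, adjusted p = 0.0050) and in dvl1-1D (−0.24 ± 0.06, adjusted p = 0.028), where it was the sole member called lower and lost this call in 6 of the alternative analyses. The major copy, ARP1 (AT1G43170), went the other way, from 686, 683 and 764 FPKM to 586, 561 and 498 FPKM in bsk36 (−0.38 ± 0.08, adjusted p = 0.0020) and with −0.32 ± 0.08 in dvl1-1D (adjusted p = 0.0070). The minor copy supplied 4.52 ± 0.239% of the L3 sum in WL and 7.27 ± 0.567% in low R:FR in bsk36, and 5.27 ± 0.265% and 7.31 ± 0.269% in Col-0 (SD, n = 3), where only the major copy was called.

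The largest rise in Col-0 was that of a gene described as L18a. AT1G29970, 1 of 2 adjacent loci named RPL18AA, had 18.3, 19.6 and 19.6 FPKM in WL and 27.7, 32.9 and 25.5 FPKM in low R:FR, a log2 fold change of 0.57 ± 0.09 (adjusted p = 6.5e-05). Its neighbour AT1G29965 had 73.7, 69.6 and 72.8 FPKM in WL and 45.1, 49.6 and 57.3 FPKM in low R:FR, a log2 fold change of −0.51 ± 0.09 (adjusted p = 1.4e-04). No library overlapped for either. In pif47 the same pair changed by 0.40 ± 0.09 and −0.27 ± 0.09 (adjusted p = 0.0040 and 0.038), and the call of AT1G29965 was lost there in 6 of the alternative analyses. The leading locus, RPL18AC (AT3G14600), had −0.24 in Col-0 (adjusted p = 0.014) and −0.16 in pif47 (adjusted p = 0.13). AT1G29970 was not called in dvl1-1D or bsk36, but its share of the falling L18a sum rose in both. The share went from 7.86 ± 0.410% to 10.7 ± 0.468% in dvl1-1D and from 7.69 ± 0.509% to 10.3 ± 0.679% in bsk36 (SD, n = 3). Its interaction of genotype and light was called in no mutant. The 2 adjacent loci overlap in the RefSeq table, so the division of reads between them is uncertain. That AT1G29970 encodes a ribosomal protein rests on its description and name, which its overlapping neighbour shares, and was not checked against its sequence.

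AT5G47940, described as an S27 protein, was the other gene called higher in Col-0, with 4.88, 5.13 and 5.09 FPKM in WL and 5.23, 6.84 and 6.84 FPKM in low R:FR (0.31 ± 0.12, adjusted p = 0.044). This call was lost in 8 of the alternative analyses. It adjoins RPS27D (AT5G47930), the leading S27 locus, which fell from 426, 356 and 421 FPKM to 251, 284 and 292 FPKM (−0.54 ± 0.08, adjusted p = 4.2e-05). Both genes called higher in Col-0 thus lie next to a member of the family that their description names, which is the case for 8 of the 191 members. The description of AT5G47940 was likewise not checked against its sequence.

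RPS9C (AT5G39850) is the minor copy of S9, a protein of the mRNA entry channel. In bsk36 it had 7.01, 6.88 and 6.02 FPKM in WL and 9.48, 8.24 and 9.09 FPKM in low R:FR (0.42 ± 0.15, adjusted p = 0.0499), a call just under the threshold that was lost in 8 of the alternative analyses. The major copy RPS9B (AT5G15200) had 619, 614 and 609 FPKM in WL and 514, 491 and 428 FPKM in low R:FR (−0.37 ± 0.08, adjusted p = 0.0015). The groups of both genes were apart, and the minor copy supplied 1.07 ± 0.0786% of the S9 sum in WL and 1.85 ± 0.218% in low R:FR (SD, n = 3). Its share also rose where it was not called. It went from 0.931 ± 0.0985% to 1.43 ± 0.146% in Col-0, from 1.33 ± 0.103% to 1.95 ± 0.318% in dvl1-1D and from 1.10 ± 0.298% to 1.53 ± 0.114% in pif47.

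**Figure D4:**
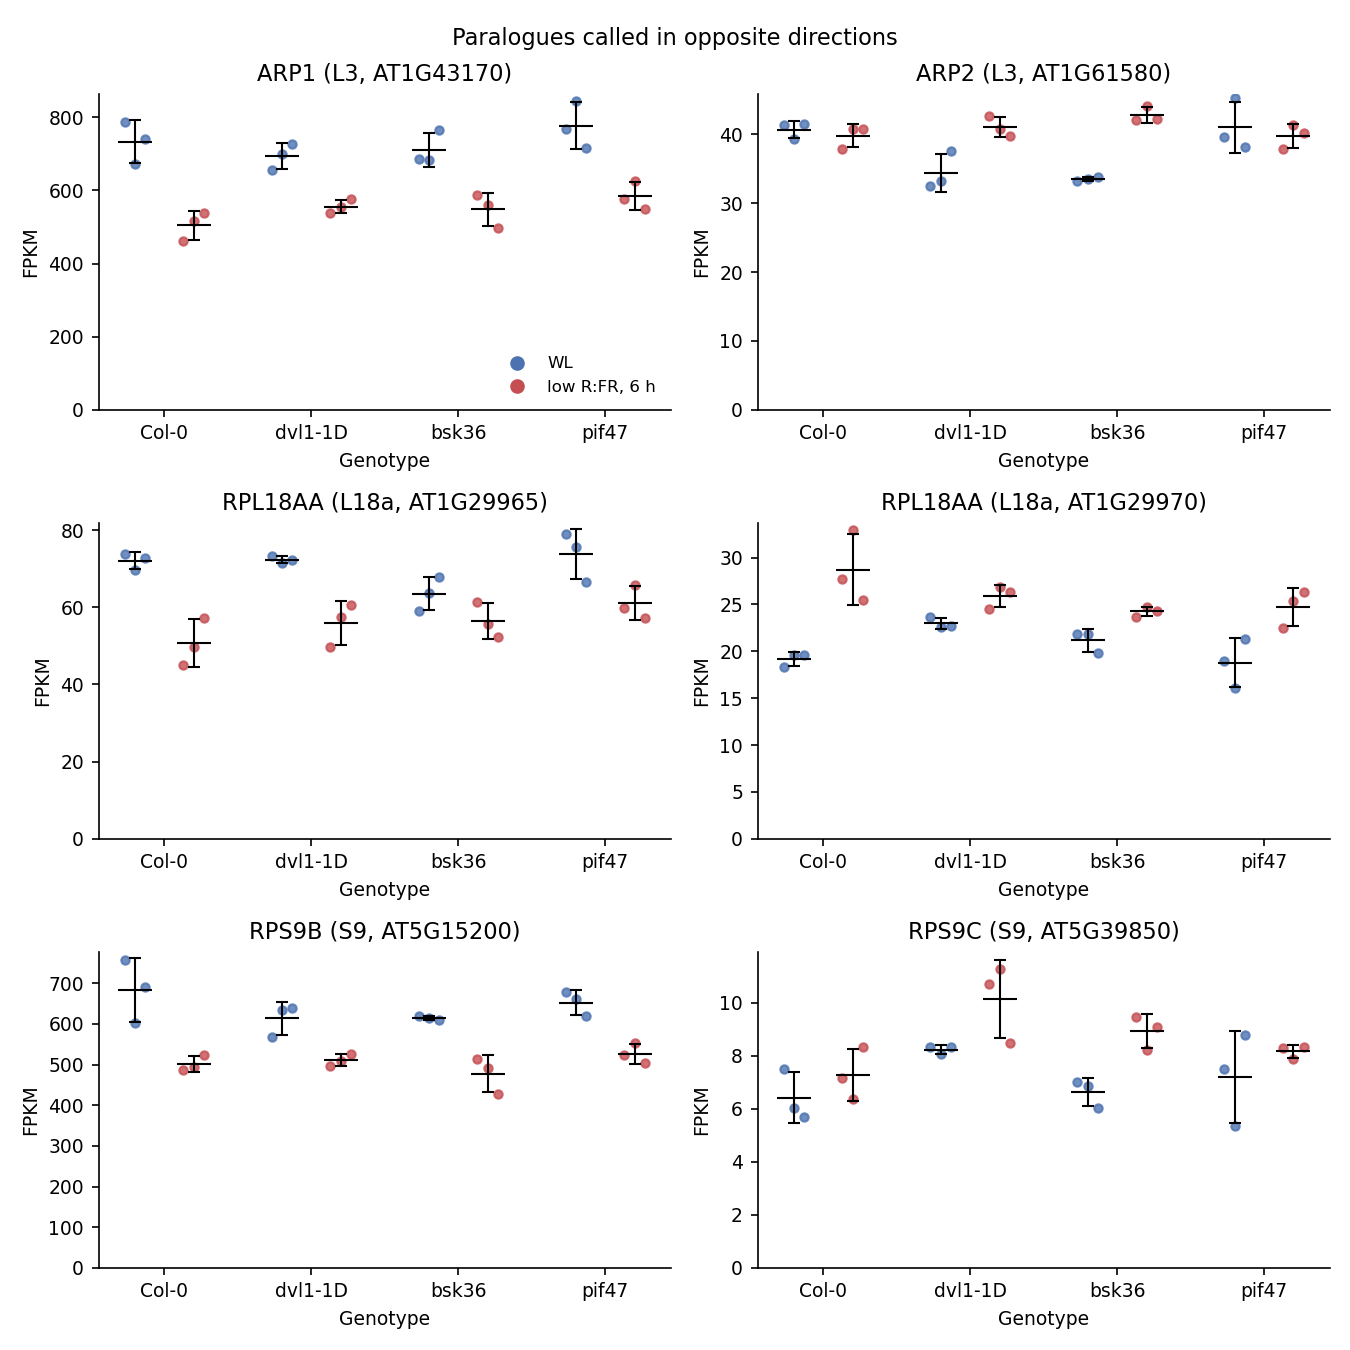
FPKM (y axis) of 2 copies each of L3, L18a and S9, the one called lower on the left and the one called higher on the right, in 4 genotypes (x axis), in WL and low R:FR. Points are libraries, the bar is the mean and the whiskers the SD of 3 replicates. ARP1 and RPS9B lie lower in low R:FR in every genotype. ARP2 was called higher in dvl1-1D and bsk36, AT1G29970 in Col-0 and pif47, and RPS9C in bsk36. A missing call in another genotype does not mean that the gene was unchanged there.

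Other members were among the most lowered in a mutant. RPL9D (AT4G10450), a protein near the factor-binding site of the 60S subunit, changed by −0.51 ± 0.09 in dvl1-1D and by −0.62 ± 0.09 in pif47 (adjusted p = 3.1e-04 and 5.4e-05). In pif47 its values were 62.7, 69.6 and 70.2 FPKM in WL and 38.9, 49.6 and 43.4 FPKM in low R:FR, without overlap. RPSAb (AT3G04770), the minor copy of SA at the mRNA exit side of the 40S subunit, changed by −0.51 ± 0.11 in dvl1-1D (adjusted p = 0.0023), where RPL36A changed by −0.50 ± 0.08 (adjusted p = 7.3e-05). In bsk36, RPL10AC (AT5G22440) of the L1 stalk changed by −0.62 ± 0.11 (adjusted p = 4.0e-04), RPS17C by −0.55 ± 0.10 (adjusted p = 3.7e-04) and RPS2B (AT1G58983), a minor S2 copy of the mRNA entry channel, by −0.66 ± 0.18 (adjusted p = 0.016).

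L41 was the family with the largest change in pif47 after L14, at −31.1% against −24.5% in Col-0. Of its loci, AT3G11120 had 296, 265 and 285 FPKM in WL and 183, 184 and 171 FPKM in low R:FR in pif47 (−0.65 ± 0.09, adjusted p = 6.1e-05). AT3G08520 had 203, 168 and 199 FPKM in WL and 149, 99.2 and 92.6 FPKM in low R:FR (−0.77 ± 0.19, adjusted p = 0.0059). Both carry the name RPL41G, and their groups did not overlap in pif47. In low R:FR AT3G08520 was lower in pif47 than in Col-0, which had 162, 158 and 192 FPKM (−0.61 ± 0.19, adjusted p = 0.032), a call lost in 7 of the alternative analyses. The interaction of pif47 with light was called for none of the members.

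Few members were called in most comparisons of the mutants with Col-0. All these comparisons share the same 3 Col-0 libraries per light condition, so they are not independent of each other. In WL, dvl1-1D had 1 member higher and 1 lower (2.63% and 2% of tested genes, 4.63% in all), and pif47 none in either direction (2.48% and 1.17% of tested genes, 3.65% in all). An unadjusted p under 0.05 (limma) was found for 14 members in dvl1-1D and 4 in pif47, against 4162 and 3993 of the 20682 tested genes. The smallest p in pif47 belonged to RPL35C (AT3G55170), at −0.27 ± 0.09 (adjusted p = 0.10), and to RPL27A (AT2G32220), at −0.35 ± 0.12 (adjusted p = 0.12). In bsk36, 26 members were lower and none higher (4.91% and 13.7% of tested genes, 18.6% in all), with a median log2 fold change of −0.15. The shift was broad, as 180 of the 191 members had a negative log2 fold change, against 7700 of the 20682 tested genes. An unadjusted p under 0.05 (limma) was found for 81 members, against 6744 tested genes. Among members with at least 100 FPKM, 12.3% were lower (median −0.16), against 24.5% of the 1042 other genes at that level (median −0.09). With median-of-ratios scaling 90 members were lower, and with these groups fitted alone 5. This count was 5 without Col-0 in WL replicate 1, 13 without replicate 3 and 56 without replicate 2 of that group, and 13 and 6 without bsk36 in WL replicates 2 and 3. The share of the members in Col-0 in WL replicate 2, 6.05%, lay within the range of bsk36.

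RPL27A was the member furthest below Col-0 in bsk36. It had 20.04, 17.9 and 15.3 FPKM in bsk36 in WL, below the 32.9, 28.3 and 29.2 FPKM of Col-0 (−0.77 ± 0.12, adjusted p = 5.7e-04). In low R:FR it had 23.5, 22.4 and 17.4 FPKM in bsk36 and 18.9, 20.5 and 21.0 FPKM in Col-0, where the groups overlapped. It is a minor L27 copy, supplying 1.85 ± 0.160% of the L27 sum in bsk36 in WL and 2.61 ± 0.1004% in Col-0 (SD, n = 3). Among abundant members RPL27AC (AT1G70600), a copy of L27a, was lower in bsk36 at 394, 412 and 391 FPKM against 605, 463 and 496 FPKM (−0.38 ± 0.11, adjusted p = 0.024, lost in 5 of the alternative analyses). RPL35AA (AT1G07070), a member of the low class with a mean of 37.3 FPKM, had −0.37 ± 0.12 (adjusted p = 0.042), a call lost in 9 of the alternative analyses.

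RPS16B was higher in dvl1-1D than in Col-0 under both lights. S16 reaches with its tail towards the tRNA in the peptidyl site, and RPS16B (AT3G04230) is the minor copy of 3. It had 17.0, 18.9 and 19.8 FPKM in dvl1-1D in WL against 12.8, 12.3 and 12.1 FPKM in Col-0 (0.58 ± 0.09, adjusted p = 0.0010). In low R:FR it had 19.8, 19.4 and 19.4 FPKM against 10.2, 11.4 and 11.6 FPKM (0.82 ± 0.09, adjusted p = 1.2e-05). The 6 dvl1-1D libraries lay above the 18 others, which ranged up to 14.1 FPKM. It supplied 3.17 ± 0.0326% of the S16 sum in dvl1-1D in low R:FR and 2.0 ± 0.0544% in Col-0 (SD, n = 3).

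**Figure D5:**
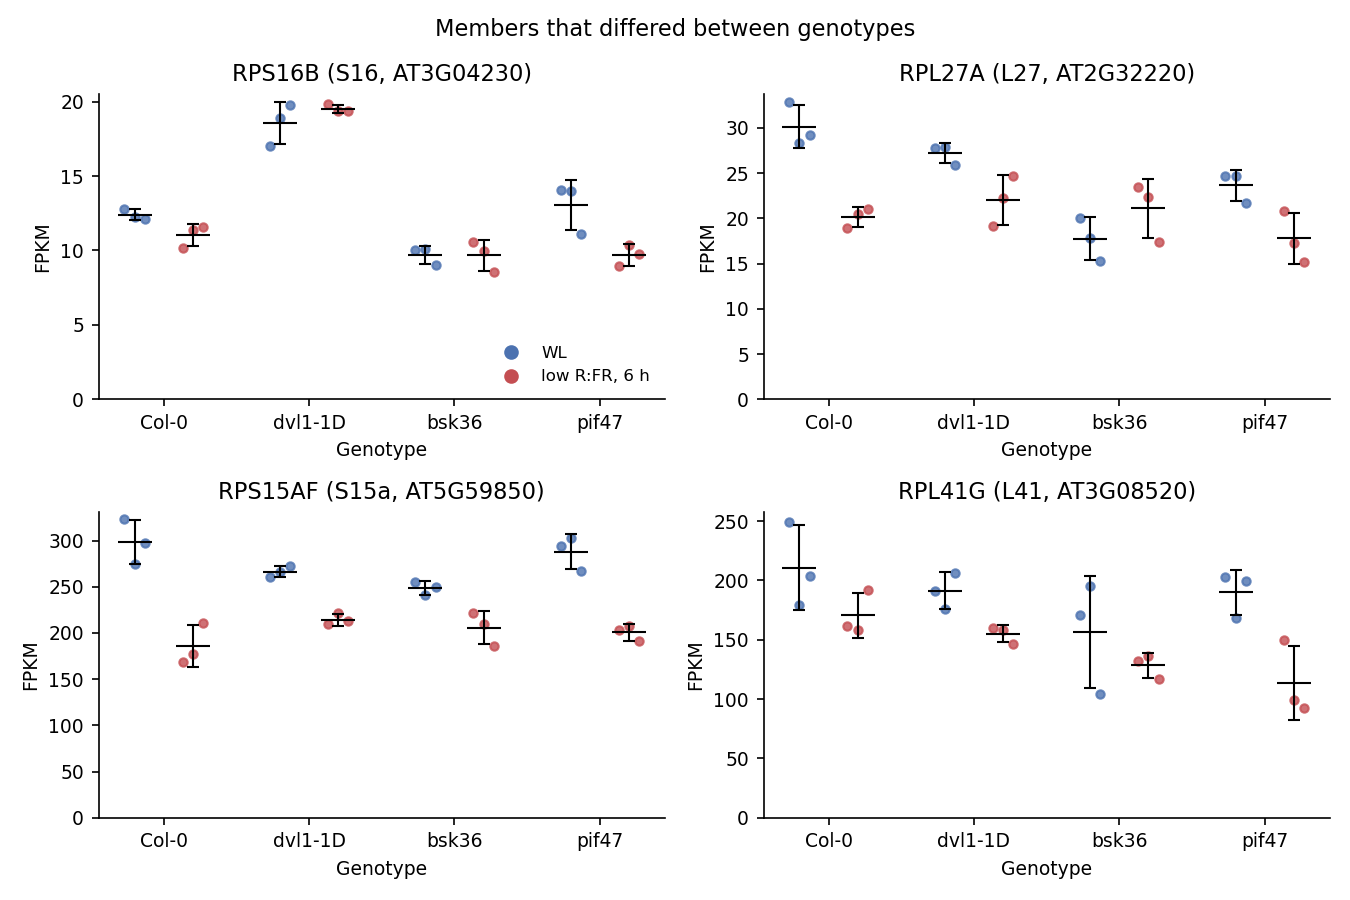
FPKM (y axis) of RPS16B, RPL27A, RPS15AF and the RPL41G locus AT3G08520 in 4 genotypes (x axis), in WL and low R:FR. Points are libraries, the bar is the mean and the whiskers the SD of 3 replicates; RPS16B is above all other libraries in dvl1-1D, and RPL27A in WL is lower in bsk36 than in Col-0.

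In low R:FR, 13 members were higher in dvl1-1D than in Col-0 and none lower (5.64% and 3.77% of tested genes, 9.4% in all), with a median of 0.16. Only 11 of the 191 members had a negative log2 fold change there, against 9440 of the 20682 tested genes. An unadjusted p under 0.05 (limma) was found for 78 members, against 5098 tested genes. After RPS16B the largest were RPS8B, with 5.43, 3.76 and 5.18 FPKM against 2.54, 2.30 and 3.14 FPKM (0.82 ± 0.23, adjusted p = 0.031), and RPS9C (0.47 ± 0.15, adjusted p = 0.046), calls lost in 6 and 8 of the alternative analyses. In pif47, 39 members had an unadjusted p under 0.05 (limma), against 5550 of the 20682 tested genes. Of the members, 9 were called higher and 2 lower (6.92% and 6.57% of tested genes, 13.5% in all). They included RPSAb (0.49 ± 0.11, adjusted p = 0.0053), RPL11A (AT2G42740), a protein that binds the 5S rRNA (0.37 ± 0.09, adjusted p = 0.011), and RPL28C (AT4G29410; 0.31 ± 0.08, adjusted p = 0.013). Besides AT3G08520, AT5G02440, described as L36 and adjoining the L36 gene RPL36C, was lower (−0.56 ± 0.14, adjusted p = 0.011). In bsk36 none was called (0.812% higher and 0.629% lower among tested genes, 1.44% in all). There, 10 members had an unadjusted p under 0.05 (limma), against 3118 of the 20682 tested genes. The smallest p in bsk36 belonged to RPL23A (AT2G33370), at −0.22 ± 0.07 (adjusted p = 0.15), and RPSAb, at 0.30 ± 0.11 (adjusted p = 0.20). Without Col-0 in low R:FR replicate 3, the library of its group with the highest member share, the counts were 52 in dvl1-1D and 23 in pif47. Without replicate 1 of that group they were 1 and 2, and without replicate 2 they were 1 and 4. With the compared groups fitted alone they were 1 and 0. Leaving out a dvl1-1D library in low R:FR gave 3 or 4 in dvl1-1D, and leaving out a pif47 library gave 2 to 7 in pif47.

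Whether the response of the mutants differed from that of Col-0 was tested per gene by the interaction of genotype and light. The median interaction over the members was 0.21 in dvl1-1D, 0.17 in the bsk36 mutant and 0.11 in pif47. It was −0.01, −0.04 and −0.03 over all tested genes and 0.08, 0.09 and 0.03 over the 1042 other genes with at least 100 FPKM. All members are measured in the same libraries, whose member medians had a within-group SD of 0.089 on the log2 scale. The 3 interactions share the same Col-0 libraries and are not independent of each other. The median interactions were not tested. The interaction was called for 0 members in dvl1-1D and in pif47 (1.08% higher and 1.26% lower, 2.34% in all, and 0.759% higher and 1.68% lower, 2.44% in all, among tested genes). An unadjusted p under 0.05 (limma) was found for 68 members in dvl1-1D, against 3815 of the 20682 tested genes. In pif47 it was found for 13 members, against 3092 tested genes. In dvl1-1D the smallest p belonged to RPS3B (AT3G53870), a protein of the mRNA entry channel, at 0.37 ± 0.10 (adjusted p = 0.056), and RPS15AF at 0.38 ± 0.11 (adjusted p = 0.070). In pif47 it belonged to RPL11A, at 0.45 ± 0.13 (adjusted p = 0.082), and RPL35C, at 0.36 ± 0.13 (adjusted p = 0.17). In bsk36, 3 members were called, all with a less negative or positive response than in Col-0 (1.29% of tested genes were higher and 1.75% lower, 3.03% in all). RPL27A had an interaction of 0.82 ± 0.17 (adjusted p = 0.015) and ARP2 one of 0.38 ± 0.09 (adjusted p = 0.023). RPS15AF (AT5G59850), an abundant S15a copy that overlaps AT5G59860, had 323, 275 and 297 FPKM in WL and 168, 178 and 211 FPKM in low R:FR in Col-0, and 255, 241 and 250 FPKM in WL and 221, 209 and 186 FPKM in low R:FR in bsk36. The light groups were apart in both genotypes, and the interaction was 0.41 ± 0.11 (adjusted p = 0.045), a call lost in 13 of the alternative analyses. Without Col-0 in low R:FR replicate 3 the interaction was called for 19 members in dvl1-1D and 15 in bsk36, without Col-0 in WL replicate 2 for 6 in each, without bsk36 in low R:FR replicate 3 for 13 in bsk36, and for 1 in bsk36 without Col-0 in WL replicate 1, bsk36 in WL replicate 1 or bsk36 in low R:FR replicate 2.

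Genes that build ribosomes were lower as well. Of 28 ribosome biogenesis genes, 21 were lower and 0 higher in Col-0 (median −0.44). The counts were 22 and 0 in dvl1-1D (−0.39), 14 and 0 in the bsk36 mutant (−0.25) and 18 and 0 in pif47 (−0.37). In Col-0 the fibrillarin gene MED36A (AT4G25630), which methylates rRNA, fell by 0.97 on the log2 scale (SE 0.13, adjusted p = 6.5e-06), and CBF5 (AT3G57150), the pseudouridine synthase of rRNA, fell by 0.73 (SE 0.11, adjusted p = 2.9e-05). The nucleolin gene NUCL1 (AT1G48920) had −0.54 ± 0.08 (adjusted p = 3.1e-05). The elongation factor and RACK1 genes gave 10 lower and 1 higher of 14 in Col-0 (median −0.39), 8 and 0 in dvl1-1D, 8 and 1 in the bsk36 mutant and 9 and 0 in pif47. The 3 genes of RACK1, a scaffold protein bound to the 40S subunit, were lower in each genotype, with −0.52, −0.75 and −0.82 for RACK1A, RACK1B and RACK1C in Col-0. Of 61 tested genes for 30S and 50S ribosomal proteins, the type of plastids and mitochondria, 33 were lower and 3 higher in Col-0 (median −0.39), 29 and 2 in dvl1-1D, 27 and 0 in the bsk36 mutant and 29 and 0 in pif47. This list includes plastid-encoded loci, mostly at low levels in poly(A) RNA, such as ATCG00330 at 7.14 FPKM and ATCG00160 at 0.92 FPKM. Some of these loci have equal values and are counted apart, such as ATCG00900 and ATCG01240, both at 2.15 FPKM. The medians of the lists are read against those of all tested genes given above, and no test of a list was run.

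Of 9 tested genes of the TOR pathway, 4 were higher and 1 lower in Col-0 (median 0.20). LST8-1 (AT3G18140), a partner of the kinase, rose by 0.23 ± 0.05 (adjusted p = 0.0014), RAPTOR1 (AT3G08850) by 0.26 ± 0.08 and TOR (AT1G50030) itself by 0.31 ± 0.09 (adjusted p = 0.010 and 0.011), whereas EBP1, listed as ATG2 (AT3G51800), fell by 0.65 (SE 0.07, adjusted p = 1.0e-06). In the mutants 0 were higher (limma), 2 were lower in dvl1-1D, 1 in the bsk36 mutant and 2 in pif47, and the medians were −0.01, 0.01 and 0.09 in that order, with 3, 2 and 4 genes at an unadjusted p under 0.05 in either direction. The background shares for these comparisons, given above for the members, were 8.09% to 10.7% higher and 8.35% to 10.1% lower, so 0 higher of 9 is near the background.

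Markers of dividing cells moved in some genotypes. Of 14 such genes, which are all expressed here, 7 were lower in Col-0 (median −0.28), 12 in bsk36 (−0.40), 6 in pif47 (−0.27) and 0 in dvl1-1D (−0.04, with 5 at an unadjusted p under 0.05, limma), and none was higher. Their summed level was 227 to 246 FPKM in WL and 180 to 222 FPKM in low R:FR in Col-0, and 279 to 298 and 205 to 242 FPKM in bsk36. In pif47 it was 248 to 259 and 207 to 226 FPKM, while in dvl1-1D the ranges of 213 to 248 and 221 to 236 FPKM overlapped. In WL the sum was higher in bsk36 than in Col-0. Of 7 root markers none was called in any genotype (limma, at most 2 at an unadjusted p under 0.05 in a genotype), with sums of 38.5 to 60.6 FPKM over the 24 libraries. The sum of 8 leaf mesophyll markers was 66239 to 71604 FPKM in WL and 59099 to 65805 FPKM in low R:FR in Col-0, with 3 markers higher and 3 lower. In dvl1-1D it was 65337 to 69910 and 58474 to 63481 FPKM, also without overlap, with 2 higher and 4 lower, and the ranges overlapped between lights in bsk36 and pif47. Of 5 shoot meristem markers, WUS (AT2G17950) was listed at 0 in 16 libraries and CLV3 (AT2G27250) in 3. Of the other 3, STM and KNAT1 were higher in Col-0 (0.40 ± 0.15 and 0.28 ± 0.10, adjusted p = 0.038 and 0.039) and ANT, a growth regulator of young organs, fell by 0.83 (SE 0.07, adjusted p = 2.1e-08). ANT was also lower in dvl1-1D (−0.49), the bsk36 mutant (−0.71) and pif47 (−0.36; adjusted p = 4.1e-05, 3.8e-07 and 9.7e-04). ANT is the largest part of the summed level of the 5 genes, with a mean of 18.8 FPKM against 11.9 FPKM for KNAT1 and 2.85 FPKM for STM. The sum fell in Col-0 although STM and KNAT1 were higher there. It was 34.3 to 35.8 FPKM in WL and 27.1 to 28.2 FPKM in low R:FR in Col-0, 35.3 to 38.7 and 31.1 to 34.0 FPKM in bsk36, and 35.2 to 37.3 and 31.8 to 33.7 FPKM in pif47, without overlap. In dvl1-1D the ranges of 33.4 to 39.3 and 32.4 to 36.0 FPKM overlapped. The part of cell type composition in the fall of the members was not tested.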

How the data were processed

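The authors deposited FPKM for 32833 genes in 24 libraries of poly(A) RNA, made and sequenced on an Illumina instrument by a company. Their processing notes name fastp, cutadapt, HISAT2, DESeq2 and the TAIR10 build, without versions or roles. The counting method and strand are not given in the sources used here. The 8 columns of group means were not used. Locus codes were matched to a RefSeq table of TAIR10.1 (32548 of 32833), used for names, biotypes, lengths and neighbours only.

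The 20682 genes whose mean reached 0.5 FPKM entered the tests. The log2(FPKM + 0.1) values were modelled by a mean for each of the 8 groups in limma 3.58.1 (R 4.3.3) (eBayes with trend, all 24 libraries, no replicate term), two-sided, and p was adjusted by Benjamini-Hochberg over all tested genes within each of 13 contrasts. A gene was called at an adjusted p under 0.05. The fits were tested on simulated data. Members, gene lists and contrasts were chosen with earlier results of these data known. Named genes were the 6 called members with the largest rise and fall in Col-0, the 3 in other contrasts (the 2 smallest p where none was called), the 5 highest and lowest by level, those beside the threshold, and paralogues called in opposite directions. In the gene lists, the genes and families named were chosen after their values were seen. Alternatives were other pseudocounts, filters, scaling, a replicate block, fits on the compared groups, stricter thresholds and leaving out each replicate.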

Additional observations from a re-analysis of the deposited data

Results flagged for a closer look

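The response to low R:FR differed between bsk36 and Col-0 for 3 members, by the interaction of genotype and light (limma, adjusted p over 20682 tested genes). This is 1.57% of the members, against 3.03% of all tested genes called for this interaction and 1.29% called higher, so the share is near the background. For RPL27A (AT2G32220) the interaction was 0.82 on the log2 scale (SE 0.17, adjusted p = 0.015), with a change of −0.58 in Col-0 and 0.25 in bsk36. For ARP2 (AT1G61580) it was 0.38 (SE 0.09, adjusted p = 0.023). For RPS15AF (AT5G59850) it was 0.41 (SE 0.11, adjusted p = 0.045), a call lost in 13 of the alternative analyses. ARP2 and RPS15AF overlap a neighbouring gene, and reads of the neighbour cannot be separated from theirs. In WL, every bsk36 library lay below every Col-0 library for RPL27A, ARP2 and RPS15AF.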

How the results depend on the processing

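The median log2 fold change of the members moved by less than the spread between replicates in all 174 comparisons of it with an alternative. This spread was a within-group SD of 0.089 for the library medians. A median smaller in size than this spread, such as 0.01 for bsk36 against Col-0 in low R:FR, could change sign within it, which was not checked. Of the results for single named members, 680 kept their side of the threshold, 131 lost a call and 7 gained one, and none changed sign. The stricter threshold left no member called, so each called member lost its call there by construction. These losses are part of the 131 and of the counts of lost calls given for single genes. Counts of called members that moved by over 1.5 times were these. With a mean FPKM of at least 5 the interaction of dvl1-1D gave 1. With no filter, dvl1-1D and pif47 against Col-0 in low R:FR gave 7 and 7. With median-of-ratios scaling, bsk36 against Col-0 in WL gave 90, dvl1-1D and pif47 against Col-0 in low R:FR gave 8 and 6 (4 higher and 2 lower in pif47, against 9 and 2), and the interaction of bsk36 gave 5. With the groups compared fitted alone, low R:FR against WL in bsk36 gave 72, dvl1-1D and bsk36 against Col-0 in WL gave 1 and 5, dvl1-1D and pif47 in low R:FR gave 1 and 0, and the interaction of bsk36 gave 1. Requiring a log2 fold change of 1 or more in size and P of at most 0.01 gave 0 in every comparison. With the replicate block, dvl1-1D and pif47 against Col-0 in low R:FR gave 8 and 7, and no other count moved by that much. The numbers do not pair the samples, since the correlation of same-numbered libraries lay between −0.0247 and 0.0867 in 12 pairs, with 0 over 0.1.

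Leaving out each replicate in turn gave 161 to 174 called members for low R:FR in Col-0, 69 to 111 in dvl1-1D, 77 to 152 in bsk36 and 124 to 159 in pif47. Against Col-0 in WL it gave 1 to 2 in dvl1-1D, 5 to 56 in bsk36 and 0 to 0 in pif47, and in low R:FR 1 to 52, 0 to 2 and 2 to 23. The interactions gave 0 to 19, 1 to 15 and 0 to 1. The causes were not tested, other than that fewer libraries enter these fits. Read numbers are not known, so values under about 10 FPKM carry an unknown counting error.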
